A study of Rattus norvegicus with 241 samples.

Results

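Venular endothelial cells were picked out of unsorted whole mammary glands of SD rats by the transcripts they carried. A cell was kept when it held at least 3 UMIs (unique molecular identifiers, 1 per captured transcript) summed over the endothelial genes *PECAM1*, *CDH5* and *EGFL7*. It could hold no more than 1 UMI summed over *PTPRC* (leukocytes), *PROX1* (lymphatic endothelium), *COL3A1* (fibroblasts) and *KRT14* (basal epithelium). It also needed at least 2 UMIs summed over the venular genes *ACKR1*, *SELP* and *SELE*. *PECAM1* and *ACKR1* were not analysed here, so the rule rested on *CDH5* and *EGFL7* for endothelium and on *SELP* and *SELE*, which encode P- and E-selectin, for the venule. It gave 1151 venular cells among 4365 blood endothelial cells and 103524 cells in all. A further 2976 blood endothelial cells carried no UMI of the venular genes and are called other blood endothelial cells. Just outside the rule lay 238 cells with exactly 1 such UMI, and just inside it 131 cells with exactly 2.

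Venules collect blood from the capillary bed, and in most organs they are the segment where leukocytes leave the circulation. Their endothelium stores P-selectin and von Willebrand factor, makes E-selectin on stimulation and displays ICAM1 and VCAM1 to rolling cells. TGFβ ligands signal through TGFBR2 and TGFBR1 to SMAD2 and SMAD3, and in endothelium also through ACVRL1 (ALK1) to SMAD1 and SMAD5, which induce the *ID* genes. The inhibitor given here blocks the kinase of TGFBR1.

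All 9 animals were virgin female SD rats, about 24 days old at the first dose. The treated rats, 6 in number, received the TGFBR1 inhibitor LY2157299 (galunisertib, written LY22157299 in the labels and called TGFBRi below) by oral gavage at 75 mg/kg, with 2 doses a day for 10 days. The other 3 received the vehicle on the same schedule, and all glands were taken on day 0 after the last dose. Each rat gave 1 library made with a 5′ droplet kit after enzymatic digestion of the gland. The SD strain is outbred, and inhibitor given by mouth reaches every cell type of the animal, so a direct effect on endothelium and an effect through other cells cannot be told apart. The rats are named by their label numbers, which are 1, 2 and 4 for vehicle and 1, 2, 4, 6, 11 and 14 for TGFBRi.

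The libraries held 7900 to 16424 cells and 43110875 to 92699378 UMIs per rat. Venular cells numbered 197 in vehicle rat 1, 179 in vehicle rat 2 and fewest in vehicle rat 4, with 480 over the 3 rats, and 53, 40, 132, 188, 97 and 161 in the TGFBRi rats in label order. Their summed UMIs ranged from 352885 to 1475698 per rat. The median venular cell held 5361 to 6245 UMIs in vehicle rats and 6228 to 8330 in TGFBRi rats. Of the 1151 venular barcodes, 140 occurred in another library and 1 was venular in both. The 2 TGFBRi rats with the fewest venular cells, 1 and 2, gave 53 and 40 of them.

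The cells carried venous transcripts, apart from 1 marker. As a description, since the rule chose these cells, levels are given as CPM, the UMIs of a gene summed over one kind of cell in 1 rat and scaled to a common total, and as the log2 ratio of venular to other blood endothelial cells of the same rat. *NR2F2*, the transcription factor of venous identity, stood at 69.5 CPM on average in venular and 20.4 in other cells, with a median log2 ratio of 1.56 and a higher level in 9 of 9 rats. *VWF*, von Willebrand factor, stood at 638 against 151 CPM, with a ratio of 2.23. *ICAM1*, the ligand of leukocyte integrins, had a ratio of 1.78 and *IL1R1*, the interleukin-1 receptor, one of 1.57, both higher in 9 of 9 rats. *EPHB4*, a receptor used as a venous marker, went the other way, at 11.8 CPM in venular and 21.7 in other cells. *NR2F2* was seen in 26.8% to 37.7% of venular cells per rat and in 4.63% to 14.8% of other blood endothelial cells, whose median depth was 4003 to 5821 UMIs.

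Several capillary and arterial genes were low in the venular cells, with exceptions. *GPIHBP1*, which anchors lipoprotein lipase in capillaries, stood at 159 CPM on average in venular and 1746 in other cells, with a median log2 ratio of -3.72. *BTNL9* and *RGCC*, further capillary genes, had ratios of -5.10 and -3.17. *CXCL12*, an arterial chemokine, had a ratio of -5.71, and the arterial genes *GJA4*, *HEY1* and *DLL4* had ratios of -2.56, -2.84 and -2.10. The endothelial genes *PLVAP*, the protein of fenestral diaphragms, and *ENG*, the TGFβ co-receptor endoglin, differed little, with ratios of 0.44 and 0.28. *AQP1*, a water channel often listed with capillaries, was higher in venular cells, at 2626 against 651 CPM, as was *VEGFC*, listed with arteries, at 27.8 against 11.5 CPM in 9 of 9 rats. *FABP4*, a capillary gene, stood at 6949 CPM in venular and 10334 in other cells, a ratio of -0.63.

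Of 4564 genes with a mean of at least 20 UMIs per rat in venular cells, a filter that favours genes high there, 198 were higher in venular cells in all 9 rats with a median ratio of at least 2-fold. The highest ratio was that of *SERPINA3N*, a secreted serine protease inhibitor, at 601 CPM in venular and 18.1 in other cells, a median log2 ratio of 6.02. *OLR1*, the receptor for oxidised low-density lipoprotein, followed at 4.02 (0.84 to 6.03 over the rats) and *CADM3*, an adhesion molecule, at 3.52. *VCAM1* stood at 372 against 44.4 CPM, a ratio of 3.44. The secreted factors *TNFSF15* and *BMP4* had ratios of 3.44 and 3.25. The matrix genes *EFEMP1* and *FBLN2*, a pair of fibulins, had ratios of 3.29 and 2.83, and *TLL1*, a protease that processes procollagen and frees BMP, one of 2.98. *SLC7A11*, the cystine transporter, had a ratio of 3.26 (1.91 to 6.02), *ANPEP*, an aminopeptidase, one of 3.08, and *SLCO2A1*, the prostaglandin transporter, one of 2.99.

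**Figure D1:**
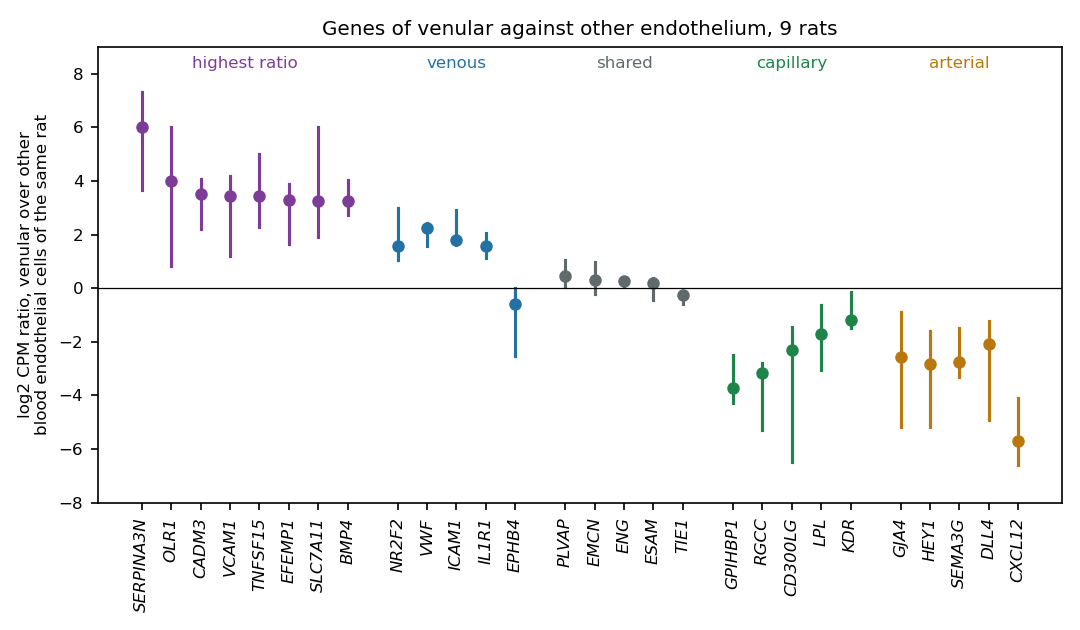
Log2 ratio of CPM, venular over other blood endothelial cells of the same rat (y axis), for genes grouped by the segment they mark; the point is the median of 9 rats and the bar runs from the lowest to the highest rat. The 4 venous genes *NR2F2*, *VWF*, *ICAM1* and *IL1R1* lie above 0 in all 9 rats, *EPHB4* lies below, and the capillary and arterial genes drawn lie below 0. *AQP1*, listed with capillaries, and *VEGFC*, listed with arteries, were higher in venular cells and are not drawn.

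A share of the cells carried genes of high endothelial venules, the venules of lymph nodes that admit lymphocytes. *MADCAM1*, the addressin bound by gut-homing lymphocytes, was seen in 4.81% to 30.3% of venular cells per rat and in 0.549% to 3.70% of other blood endothelial cells. At least 1 UMI of *CHST4*, *FUT7*, *MADCAM1* or *GLYCAM1* was carried by 317 of the 1151 cells, 5.77% to 37.7% of venular cells per rat, and by 2.29% to 17.1% of other blood endothelial cells. *GLYCAM1*, which is also a milk protein gene of the mammary epithelium, was seen in 0.962% to 21.8% of venular and 1.04% to 16.2% of other cells, at a mean of 0.00962 to 273 and 8.73 to 54.1 UMIs per cell, and its source was not tested. Its summed level spanned 1.76 CPM in vehicle rat 4 to 30482 CPM in a TGFBRi rat, and *CCL21*, the chemokine of lymph nodes and lymphatics, was at 1.76 CPM in the same vehicle rat and at 2340 in vehicle rat 2. With all 317 cells left out, 1216 genes were higher and 1213 lower under TGFBRi in the comparison below.

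The share of venular cells among all cells did not separate the groups. It was 1.20% in vehicle rat 1 (95% Wilson interval 1.04% to 1.38%), 1.42% in vehicle rat 2 (1.23% to 1.64%) and 0.882% in vehicle rat 4 (0.729% to 1.07%). In the 6 TGFBRi rats it ran from 0.506% (0.372% to 0.689%) over a median of 0.972% to 1.59% (1.38% to 1.83%). The means were 1.17% ± 0.270 (SD, n = 3) and 1.02% ± 0.446 (SD, n = 6), and the groups overlapped, with a two-sided exact permutation p of 0.667. The intervals cover counting error only.

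Among blood endothelial cells the venular share had a higher mean in the treated rats, which did not pass a threshold of 0.05 once adjusted over both shares. Cells were counted as venular by *SELP* and *SELE* and as endothelial by *CDH5* and *EGFL7*, and the levels of *SELE* and *EGFL7* themselves differed between the groups, so a change in the number of cells and a change in these levels cannot be told apart. It was 23.1% (20.4% to 26%), 26.4% (23.3% to 29.9%) and 16.7% (14.0% to 19.9%) in vehicle rats 1, 2 and 4. In the TGFBRi rats it ran from 24.1% (18.2% to 31.1%) over a median of 30.7% to 32.4% (27.4% to 37.9%), and 5 of 6 lay above every vehicle rat. The means were 22.1% ± 4.92 (SD, n = 3) and 29.8% ± 3.09 (SD, n = 6), a difference of 7.69 percentage points with a two-sided exact permutation p of 0.0476, or 0.0952 adjusted over both shares; the smallest p this design allows is 0.0238. Cells were also thinned to 1500 UMIs before the rule was applied, with the 21173 cells below that depth left out. The rule then found 4 to 42 venular cells per rat, and the difference was 3.77 points with an exact p of 0.238. Blood endothelium made up 5.19% to 5.37% of cells in vehicle rats and 1.98% to 4.97% in TGFBRi rats, but with at least 2 UMIs of *CDH5* alone as the gate the shares overlapped, at 4.21% to 5.66% and 2.15% to 5.51%, and neither was tested.

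**Figure D2:**
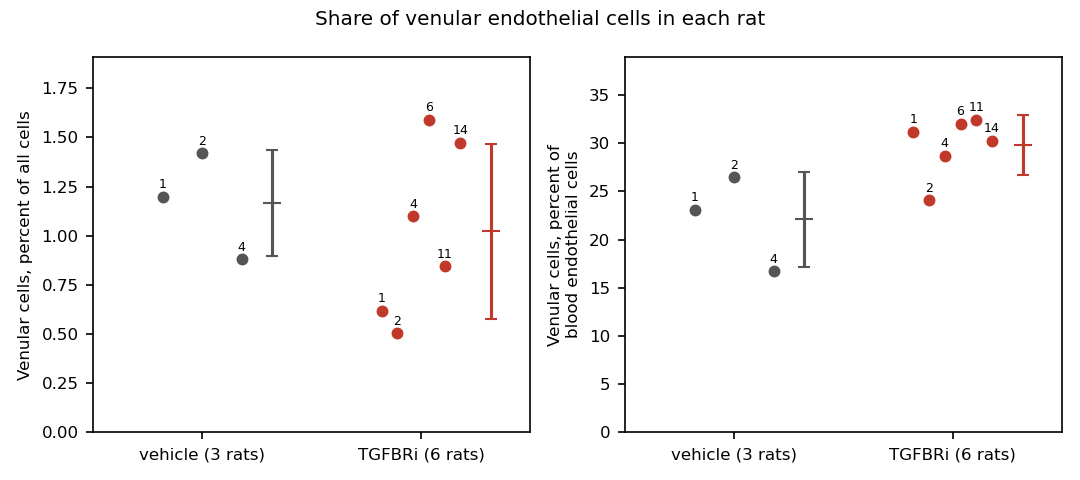
Percentage of venular cells (y axis) among all cells and among blood endothelial cells, with 1 point per rat, numbered as in the labels, for 3 vehicle and 6 TGFBRi rats; the bar beside each group gives the mean ± SD. The shares of all cells overlap between the groups, and 5 of 6 TGFBRi rats lie above all vehicle rats in the share of blood endothelial cells.

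The genes that chose the cells differed between the groups themselves, and are given as a description with no test, since the rule used them. In all blood endothelial cells the log2 fold change was 1.63 for *SELE*, 0.52 for *SELP*, 0.06 for *CDH5*, VE-cadherin, and -1.15 for *EGFL7*, a secreted endothelial factor. Within venular cells *SELE* stood at 277, 467 and 350 CPM in vehicle rats and from 615.8 over a median of 731 to 1129 CPM in TGFBRi rats, and 41.1% to 51% against 57.5% to 78.3% of cells held a UMI of it. *SELP* stood at 2035, 3377 and 1747 CPM against 2215, 2327 and 3342 CPM (lowest, median and highest). *EGFL7* stood at 980, 838 and 449 CPM against 166, 282 and 341 CPM. The part of these differences in the venular shares was not tested beyond other gates: with at least 2 UMIs of *SELP* alone the endothelial share differed by 7.56 points, and with at least 2 UMIs of *CDH5* in place of the endothelial sum by 11.5 points.

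TGFBRi changed 2867 of 10817 genes tested in venular cells. Counts were summed per rat and compared by edgeR's quasi-likelihood test at a Benjamini-Hochberg adjusted p of 0.1, with log2 fold changes given as TGFBRi over vehicle and standard errors from DESeq2. Of these, 1330 were higher (12.3%) and 1537 lower (14.2%) in TGFBRi rats. For 2176 genes (20.1%) the CPM ranges of vehicle and TGFBRi rats were apart, among them 1949 of the 2867 called. The median log2 fold change of all tested genes was 0.01. Scaled by library size alone, that median was 0.20 and the calls split into 2028 higher and 918 lower, so the balance of directions depended on the scaling. Leaving out vehicle rat 2 left 977 genes lower. The count of 2867 became 1046 after thinning venular cells to 1500 UMIs, which dropped the 23 cells below that depth. It became 1499 without cells carrying a UMI of chosen markers of other cell types, which are named below. In all blood endothelial cells 4069 of 13097 genes passed (31.1%; 2542 without vehicle rat 1 and 5485 without vehicle rat 4), and in other blood endothelial cells 3117 of 12573 (24.8%; 1443 and 4940 without the same rats).

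Among genes with a mean of at least 20 UMIs per rat and groups that did not overlap, the largest rises were those of *TIMP4*, *RBP7* and *MGLL*. *TIMP4*, an inhibitor of metalloproteinases, stood at 5.69, 1.70 and 0 CPM in vehicle rats and from 23.8 over 50.4 to 82.2 CPM in TGFBRi rats (log2 fold change 4.19, SE 0.66, adjusted p = 0.000158). *RBP7*, a retinol-binding protein, stood at 131, 97.6 and 130.2 CPM against 265, 710 and 1605 CPM, a log2 fold change of 2.83. *MGLL*, monoacylglycerol lipase, stood at 40.7, 40.7 and 45.8 CPM against 217, 280.5 and 330.3 CPM (log2 fold change 2.72, SE 0.21, adjusted p = 1.09e-07). For *MGLL* each TGFBRi rat exceeded the vehicle rats by a wide margin, whereas *RBP7* varied widely among the TGFBRi rats. Others of the same rank were the sulfotransferase *SULT1A1* (2.63), the endophilin *SH3GLB2* (2.48), the glycerol channel *AQP7* (2.38), the fatty acid hydroxylase *CYP4B1* (2.36), the nuclear receptor *NR4A2* (2.24), the exocytosis factor *RPH3AL* (2.19), the heterochromatin protein *CBX3* (2.18) and *HRCT1* (2.12). *RT1-T24-4*, a class I histocompatibility gene, stood at 153.7, 84.9 and 105.6 CPM against 337, 493 and 661 CPM, a log2 fold change of 2.13. Genes of that family are near copies of each other, so the level of 1 of them is uncertain.

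Chosen in the same way, the genes with the largest falls included *AKR1B8*, *PDGFA* and *HMOX1*. *AKR1B8*, an aldo-keto reductase, stood at 7197, 5878 and 3141 CPM in vehicle rats and from 115 over 165 to 249 CPM in TGFBRi rats (log2 fold change -4.99, SE 0.27, adjusted p = 2.63e-09). *PDGFA*, a growth factor for perivascular and stromal cells, stood at 131, 275 and 157 CPM against 14.1, 15.1 and 26.8 CPM (log2 fold change -3.45, SE 0.31, adjusted p = 1.09e-07). *HMOX1*, heme oxygenase, stood at 15523, 12028 and 4475 CPM against 667, 1390 and 1892 CPM, a log2 fold change of -2.95. *CXCL3*, a neutrophil chemokine, stood at 354, 745 and 148 CPM against 0, 10.0 and 41.2 CPM, a log2 fold change of -4.62, or -3.87 without vehicle rat 2. On the same scale the tubulin *TUBB3* fell by 3.79, *SLC7A11* by 3.39, the sulfotransferase *CHST12* by 3.36, *GCLM* by 3.14, the vasodilator peptide adrenomedullin (*ADM*) by 3.03 and *OLR1* by 2.84. The log2 fold changes of *AKR1B8*, *PDGFA* and *HMOX1* were -6.11, -1.16 and -3.22 in other blood endothelial cells. Over all cells of the gland they were -4.41, -1.14 and -3.02.

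Both further chemokine genes among the largest falls rested on few cells or rats. *CXCL6* had 191 UMIs over the vehicle rats, at 17.9, 143 and 1.76 CPM, and none in the TGFBRi rats. Pooled over the vehicle rats, the level was 99.9-fold above a floor of 3 UMIs over the TGFBRi group, which is 0.584 CPM. This pooled figure leaves out the spread between rats and is no lower limit over rats, as vehicle rat 4 stood at 1.76 CPM. Most of the pooled level came from vehicle rat 2, and the log2 fold change was -8.75, or -6.30 without that rat. *CCL3* stood at 149.7, 2.55 and 3.52 CPM in vehicle rats and at 1.6 CPM or less in TGFBRi rats, so its size came from vehicle rat 1.

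**Figure D3:**
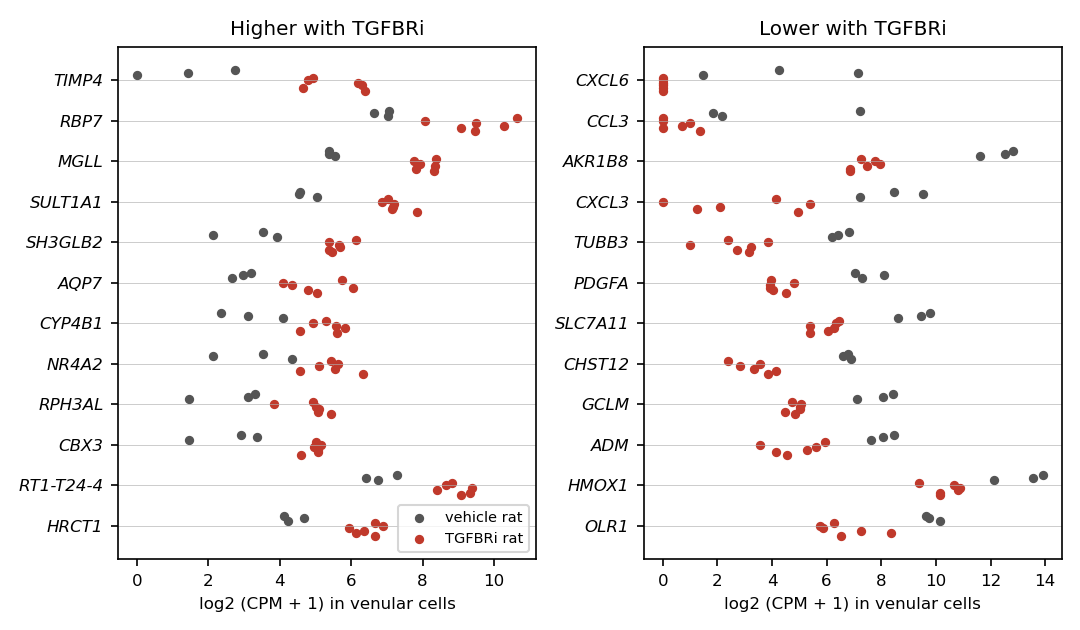
Level of the genes with the largest changes in venular cells, as log2 of CPM plus 1 (x axis), with 1 point per rat for 3 vehicle and 6 TGFBRi rats; higher genes are on one panel and lower genes on the other. The choice of the genes required that the groups do not overlap, and for *CXCL6* the TGFBRi points lie at 0.

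Glutathione, thioredoxin, heme and iron-storage genes fell together. This list of antioxidant genes, known as targets of the transcription factor NRF2, was drawn up after the values were seen, so its count is a description. Of 24 tested, 19 were lower and none higher, beside 14.2% and 12.3% of all genes, with a median log2 fold change of -1.61 beside 0.01. The groups did not overlap for 19, beside 20.1% of all genes. *NQO1*, a quinone reductase, stood at 1205, 936 and 1248 CPM in vehicle rats and from 250.4 over 283 to 313 CPM in TGFBRi rats, a log2 fold change of -1.98. *SQSTM1*, the autophagy receptor p62, stood at 7336, 5287 and 3746 CPM against 404, 851 and 1082 CPM, a log2 fold change of -2.77. For both genes the vehicle rats stood well above every TGFBRi rat.

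The catalytic and the regulatory subunit of glutathione synthesis both fell, *GCLC* by 1.16 and *GCLM* by 3.14 on the log2 scale. *TXNRD1*, thioredoxin reductase, fell by 1.38 and *TALDO1*, transaldolase of the pentose phosphate pathway, by 1.67. *KEAP1*, the protein that marks NRF2 for degradation, fell by 1.94. *FTH1*, the ferritin heavy chain, stood at 25450.4, 29652 and 20531 CPM against 5986, 6323 and 7949 CPM, a log2 fold change of -1.93, though processed copies of ferritin genes make its count uncertain. *NFE2L2*, which encodes NRF2, stood at 618, 547 and 593 CPM against 646, 681 and 739 CPM. It did not pass the test (log2 fold change 0.23, adjusted p = 0.14), though it did in an alternative fit. In other blood endothelial cells of the same rats the median of the list was -1.36, and over all cells of the gland -0.82.

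The promoters of the list were read for the core of the antioxidant response element, TGACNNNGC on either strand, in a window from 250 bases before to 50 after the gene start (RefSeq, GRCr8). It occurred in 6 of 21 list genes with a promoter entry and in 3 of the 14 lower ones, *GCLM*, *ME1* and *PRDX1*, beside 12.1% of 33469 rat promoters. Both promoters printed here, of the regulatory subunit of glutathione synthesis and of a peroxiredoxin, belong to genes that fell, and capitals mark the match.
GCLM, chr2:213031885-213032184, plus strand: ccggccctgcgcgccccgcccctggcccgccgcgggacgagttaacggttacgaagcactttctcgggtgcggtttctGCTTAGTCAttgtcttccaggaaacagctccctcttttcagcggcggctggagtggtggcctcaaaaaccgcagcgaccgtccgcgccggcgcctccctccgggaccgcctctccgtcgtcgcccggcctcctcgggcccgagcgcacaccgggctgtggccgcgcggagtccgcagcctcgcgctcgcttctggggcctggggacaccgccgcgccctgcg
PRDX1, chr5:135383656-135383955, plus strand: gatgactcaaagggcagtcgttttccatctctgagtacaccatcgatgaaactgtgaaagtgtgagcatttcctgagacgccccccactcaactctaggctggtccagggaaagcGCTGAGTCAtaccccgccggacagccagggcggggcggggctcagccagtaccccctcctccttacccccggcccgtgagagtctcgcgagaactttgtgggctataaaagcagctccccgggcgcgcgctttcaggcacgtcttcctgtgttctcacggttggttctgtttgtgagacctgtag
A match is a string of letters in this window, not a site shown to be bound.

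Proteasome genes also fell. This list was also drawn up after the values were seen. Of 31 subunits tested, 27 were lower and none higher, beside 14.2% and 12.3% of all genes, with a median log2 fold change of -0.72, and 27 had groups that did not overlap, beside 20.1% of all genes. *PSMD11*, a subunit of the regulatory lid, stood at 468, 501 and 396 CPM in vehicle rats and from 141 over 169 to 174 CPM in TGFBRi rats, a log2 fold change of -1.48. *PSMD7*, another lid subunit, fell by 1.35. In other blood endothelial cells the median of the list was -0.75, and over all cells of the gland -0.50. No subunit passed the test of the difference between venular and other cells, given below. In simulated data that test found 38.5% of planted log2 differences of 1, so an absent call does not show an equal response. After thinning venular cells to 1500 UMIs, 17 subunits were lower, in a fit that called 524 of 7702 genes lower.

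Other stress genes were split. Of 15 genes of the integrated stress response, a list of the same kind, 4 were higher and 5 lower (median -0.02), beside 12.3% and 14.2% of all genes. *ASNS*, asparagine synthetase, fell by 2.00 and *CEBPB*, a transcription factor of stress and inflammation, by 1.36, whereas *SESN2*, a stress-induced inhibitor of mTORC1, rose by 1.10. Of 14 heat shock genes, listed likewise, 2 were higher and 3 lower (median 0.12), among them *HSPA8* (0.68) and the mitochondrial chaperone *HSPD1* (-0.82), near the shares of all genes.

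More chemokine and cytokine transcripts fell than rose. Of 23 tested, 9 were lower and 3 higher, beside 14.2% and 12.3% of all genes, with a median of -0.74, and over all cells of the gland the median was -1.10. Leukocyte markers in the venular sums moved the same way, with 2 of 10 lower, none higher and a median of -1.35, and their part in the fall was not tested. *CSF3*, the neutrophil growth factor G-CSF, stood at 4255, 8032 and 1797 CPM in vehicle rats and from 713 over 876 to 1005 CPM in TGFBRi rats (log2 fold change -2.43, SE 0.41, adjusted p = 1.82e-05). Its log2 fold change was -1.76 without vehicle rat 2. *CXCL1*, a ligand of the neutrophil receptor CXCR2, stood at 13552, 24104 and 7866 CPM against 4547, 4949 and 6241 CPM, a log2 fold change of -1.56, or -1.02 without vehicle rat 2. *CXCL16*, a membrane-bound chemokine, stood at 340, 406 and 398 CPM against 73.4, 96.8 and 118 CPM, a log2 fold change of -2.01. None of these groups overlapped. The other CXCR2 ligand *CXCL2* fell by 2.08 and the macrophage growth factor *CSF1* by 0.74 (a call lost in 2 alternatives). *IL33*, an alarmin held in venular nuclei, rose from 220, 264 and 303 CPM to between 482 and 694 CPM (log2 fold change 1.09, adjusted p = 8.42e-05), and *TNFSF10*, which encodes TRAIL, rose by 1.34 (a call also lost in 2). *CCL2* and *IL6* did not pass the test, at -0.93 and -0.53 (adjusted p = 0.12 for both), though each did in an alternative fit.

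Outside the rule, genes that NF-kB induces were lower or did not pass. Of 20 tested, 10 were lower and none higher (median -0.51), beside 14.2% and 12.3% of all genes. The median of the list was -0.44 in other blood endothelial cells and -0.46 over all cells of the gland. *SOD2*, mitochondrial superoxide dismutase, stood at 8329, 9347 and 8410 CPM in vehicle rats and from 1962 over 2175 to 2548 CPM in TGFBRi rats (log2 fold change -1.97, SE 0.10, adjusted p = 2.63e-09). The vehicle values were tight and lay far above every treated rat. *NFKBIA*, the NF-kB inhibitor that NF-kB itself induces, fell by 0.52, and *TNFAIP2* by 2.72 (1.22 after thinning, adjusted p = 0.223). *SELE*, another NF-kB target, was part of the rule and is left out of these counts. It went the other way, with a log2 fold change of 1.63 in all blood endothelial cells. Within venular cells its level was higher in every TGFBRi rat than in any vehicle rat.

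Of 15 adhesion and transmigration genes tested, 4 were higher and 3 lower (median -0.15), beside 12.3% and 14.2% of all genes. *ICAM2* stood at 83.8, 98.4 and 127 CPM in vehicle rats and from 249 over 257 to 282 CPM in TGFBRi rats (log2 fold change 1.36, SE 0.15, adjusted p = 1.26e-05). *CX3CL1*, fractalkine, stood at 138, 154 and 320.3 CPM against 44.4, 58.6 and 65.3 CPM, a log2 fold change of -1.83. Neither gene's groups overlapped. *MADCAM1* rose by 1.08 (0.93 without vehicle rat 2, adjusted p = 0.141) and the junctional adhesion molecule *JAM2* by 0.61. *ICAM1* stood at 1220, 1118 and 1344 CPM against 1113, 1455 and 1845 CPM and *VCAM1* at 285, 254 and 637 CPM against 235, 326 and 605 CPM. Both overlapped between the groups and did not pass, with log2 fold changes of 0.26 and -0.16, though *ICAM1* passed in an alternative fit.

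Of 23 TGFβ target genes tested 3 were higher and 4 lower (median 0.05), shares near the 12.3% and 14.2% of all genes. *CCN1*, a matricellular protein, stood at 291, 341 and 340 CPM in vehicle rats and from 83.8 over 148 to 254 CPM in TGFBRi rats and did not overlap between the groups (log2 fold change -1.13, adjusted p = 0.00183). *IGFBP3* fell by 1.22 and the cell cycle inhibitor *CDKN1A* by 0.53 (a call lost in 3 alternatives), whereas *VIM*, vimentin, rose by 0.64. Of 10 genes of negative feedback 1 was lower, the SMAD corepressor *TGIF1* (-0.73), and none higher.

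Among 23 ligands, receptors and SMADs 3 were higher and 4 lower (median -0.12), again near the shares of all genes. *TGFBR3*, the co-receptor betaglycan, stood at 72.4, 70.4 and 35.2 CPM in vehicle rats and from 168 over 183 to 208 CPM in TGFBRi rats (log2 fold change 1.6, SE 0.19, adjusted p = 2.87e-05). *ACVRL1*, the endothelial type I receptor ALK1, stood at 14.6, 24.6 and 7.04 CPM against 28.3, 45.9 and 52.2 CPM, a log2 fold change of 1.34. Both receptors were higher in every TGFBRi rat than in any vehicle rat. *LTBP1*, which binds latent TGFβ, rose by 0.61 and *INHBA*, an activin subunit, fell by 1.55, a call lost in 5 alternatives (-2.92 to -0.88, adjusted p up to 0.499), among them the one without vehicle rat 4. The target of the inhibitor, *TGFBR1*, stood at 26, 21.2 and 21.1 CPM against 12.6, 17.4 and 21.1 CPM and did not pass (log2 fold change -0.39, adjusted p = 0.26). *TGFBR2* (0.19) did not pass either. Of 12 BMP pathway and *ID* genes 1 passed, *HEY1*, which stood at 3.00 CPM (median) in TGFBRi rats and under 1 CPM in each vehicle rat.

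Most capillary genes tested rose in the venular cells. Of 10 tested, 7 were higher and none lower (12.3% and 14.2% of all genes), with a median of 1.13 beside 0.75 for the same genes in other blood endothelial cells. None of the 10 passed the test of the difference between these cells, given below. That test missed most planted log2 differences of 1 in simulated data, so an absent call does not show an equal response. *GPIHBP1* stood at 44.7, 45.8 and 114 CPM in vehicle rats and from 96.8 over 195 to 322 CPM in TGFBRi rats, a log2 fold change of 1.6 (adjusted p = 0.0057), with overlapping groups. *CD300LG*, a capillary mucin, rose by 3.18 (2.68 to 4.89 over the alternatives). *RGCC*, a regulator of the cell cycle, rose by 1.62 and the fatty acid carrier *FABP4*, already at 5335 CPM on average in vehicle rats, by 0.48. *GPIHBP1* was seen in 8.63% to 9.62% of venular cells of vehicle rats and 9.28% to 25.8% of those of TGFBRi rats. With cells carrying a UMI of chosen markers of other cell types left out, the log2 fold change of *GPIHBP1* was 0.94. It did not pass (adjusted p = 0.22), and no adipocyte marker was among those chosen. Adipocyte markers summed to 84.9 to 229 CPM in vehicle and 206 to 638 CPM in TGFBRi rats, with 1 of 2 tested higher. The part of adipocyte transcripts, and of free RNA from other cells, in this rise was not tested. *SELE*, a gene of the rule, was higher under TGFBRi. The part of cells that entered through it was not tested beyond a gate of at least 2 UMIs of *SELP* alone. Under that gate no capillary gene named here lost its call.

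Of 11 arterial genes 3 were higher and none lower (median 0.86), beside 12.3% and 14.2% of all genes, among them *SOX17*, a transcription factor of arterial fate, at 41.5, 48.4 and 61.6 CPM against 67, 84 and 141 CPM (log2 fold change 0.86). Of 15 venous and venular genes outside the rule 2 were higher and 3 lower (median -0.16), near those shares. *NR2F2* (-0.41, adjusted p = 0.14) and *VWF* (0.08, adjusted p = 0.80) did not pass, though *NR2F2* did in an alternative fit. Of 14 genes of high endothelial venules 3 were higher and 1 lower (median 0.23), with *CH25H*, the enzyme that makes 25-hydroxycholesterol, at 54.5, 122 and 63.3 CPM against 144.5, 189 and 233 CPM (log2 fold change 1.26) and no overlap.

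The angiopoietin receptor *TEK* and the receptor *NOTCH1* rose. Of 26 genes of the VEGF, angiopoietin and Notch pathways 9 were higher and 4 lower (median 0.18), beside 12.3% and 14.2% of all genes. *TEK*, the angiopoietin receptor TIE2, stood at 58.6, 61.1 and 63.4 CPM in vehicle rats and from 116 over 129 to 179 CPM in TGFBRi rats, a log2 fold change of 1.18. *PTPRB*, the phosphatase VE-PTP that acts on TIE2, rose by 0.81 and *NOTCH1* by 0.88, with no overlap between the groups for any of the 3. Among Notch ligands *DLL1* fell by 1.20 and *JAG2* rose by 1.56, a call lost in 3 alternatives, with 0.15 after thinning (adjusted p = 0.951). *ANGPT2*, the ligand stored in endothelial granules, did not pass (-0.46, adjusted p = 0.12), though it did in an alternative fit.

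Of 37 matrix and basement membrane genes 7 were higher and 5 lower (median 0.08), near the 12.3% and 14.2% of all genes. *MGP*, matrix Gla protein, an inhibitor of calcification, stood at 1842, 3232 and 1941 CPM in vehicle rats and from 451 over 569 to 948 CPM in TGFBRi rats, a log2 fold change of -1.92 without overlap. *TIMP1* fell by 0.76, whereas the laminin chain *LAMA5* rose by 0.94, fibrillin (*FBN1*) by 0.90 and the protease *ADAMTS1* by 0.85. Of 22 genes of coagulation and vascular tone 3 were higher and 6 lower (median -0.03). The endothelin receptor *EDNRB* fell by 1.44 and the nitric oxide synthase *NOS3* by 0.39 (adjusted p = 0.051, a call lost in 15 alternatives), whereas *TFPI2*, a protease inhibitor, rose by 0.97. Of 17 junction and permeability genes 3 were higher and 3 lower (median -0.12), again near those shares, with falls of 0.80 in the barrier receptor *S1PR1* and of 0.79 in p120-catenin (*CTNND1*) and a rise of 0.33 in *ESAM* (a call lost in 3 alternatives).

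The remaining lists are given beside the 12.3% higher and 14.2% lower of all genes. Of 14 glucocorticoid-responsive genes 6 were higher and 1 lower (median 0.41), led by metallothionein *MT1*, at 587, 664 and 320.3 CPM against 1622, 1977 and 2573 CPM (log2 fold change 1.94), and *TSC22D3* (1.40). Of 22 immediate early and dissociation genes 5 were higher and 5 lower (median 0.22), with rises of 1.52 in *FOSB* and 0.94 in *FOS*. Of 20 interferon genes 4 were higher and 1 lower (median 0.31), among them *BST2*, tetherin (0.40, a call lost in 2 alternatives). Of 16 histocompatibility genes 2 were higher and 1 lower (median -0.17), of 19 cell cycle genes 2 higher and none lower (median 0.72, with *PCNA* at 0.84), and of 12 IGF and insulin genes 2 higher and 2 lower (median 0.07). Of 19 general endothelial genes 6 were higher and 2 lower (median 0.17).

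**Figure D4:**
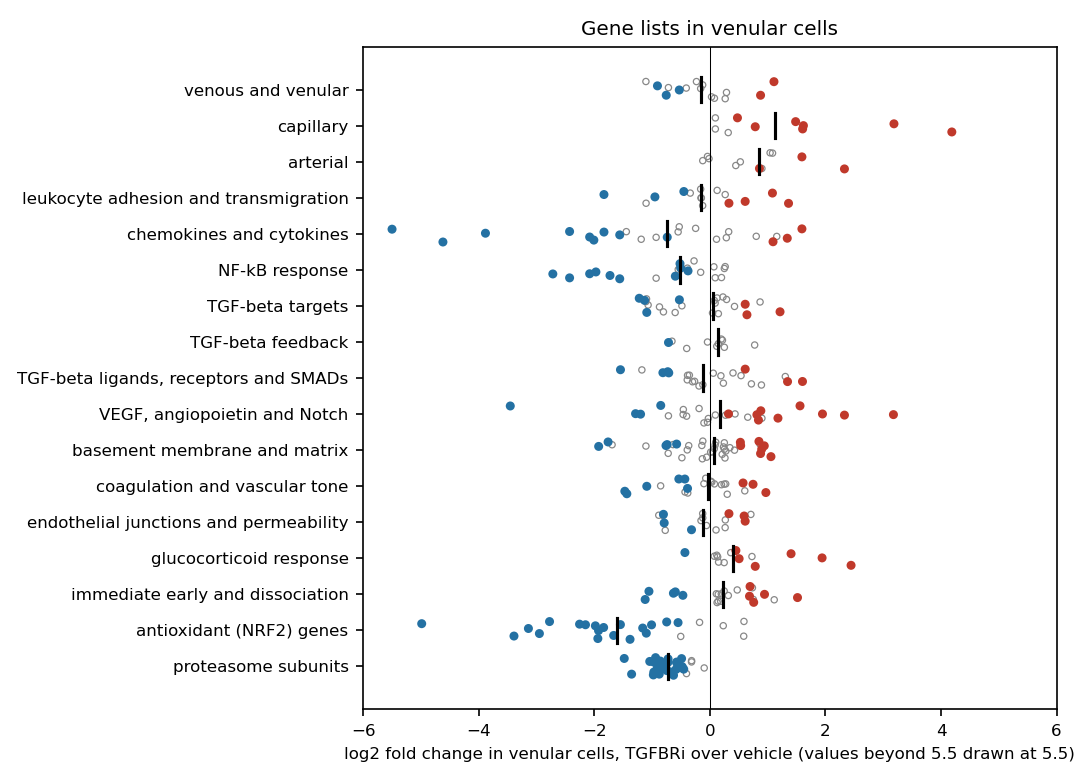
Log2 fold change in venular cells, TGFBRi over vehicle (x axis), of each tested gene (points) of the gene lists (rows); filled points passed an adjusted p of 0.1, red higher and blue lower, open points did not, the black bar is the list's median, and values beyond 5.5 are drawn at 5.5. The antioxidant and proteasome lists, both drawn up after the values were seen, lie almost wholly to the left, at medians of -1.61 and -0.72, and the capillary list to the right, at 1.13.

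Markers of other cell types were present at levels that varied between rats. The counts of passing markers are given beside the 12.3% higher and 14.2% lower of all genes. Of 10 leukocyte genes tested 2 were lower and none higher, their summed level was 24.6 to 128 CPM in vehicle and 12.6 to 44.3 CPM in TGFBRi rats, and *CD3E* was seen in 0.962% to 1.52% of venular cells per vehicle rat and in up to 1.24% per TGFBRi rat. *CD52* was seen in 0 of 1151 venular cells, and the platelet gene *PF4* in up to 2.5% per rat. Pooled over rats, this allows up to 0.261% of venular cells with a *CD52* UMI. It sets no limit on cells that express the gene unseen. Fibroblast genes (1 of 7 lower) summed to 24.4 to 227 CPM against 24.1 to 73 CPM. Epithelial genes (2 of 12 higher) summed to 334 to 996 CPM against 35.8 to 2589 CPM, and lymphatic genes to 12.3 to 2366 CPM against 175 to 2201 CPM. Schwann cell genes summed to 845 to 989 CPM against 402 to 589 CPM, without overlap, nearly all of it *PMP22* (898 against 506 CPM on average), with *SOX10* at 0.813 and 1.94 CPM. Adipocyte genes are given above with the capillary list. By the edgeR test none of 9 pericyte, 6 lymphatic and 2 erythroid markers passed, of which 1 pericyte marker had an unadjusted p under 0.05, and 1 of 2 platelet, 1 of 5 Schwann cell and 1 of 2 adipocyte markers did. Their part in the results was not tested, other than by a gate on chosen markers. It left out every cell with a UMI of *PTPRC*, *PROX1*, *COL3A1*, *KRT14*, *CD3E*, *CD79A*, *LYZ2*, *PF4*, *COL1A1*, *DCN*, *KRT8*, *KRT18*, *EPCAM*, *PDGFRB* or *RGS5*. No adipocyte, Schwann cell or erythroid marker was among them. This gate kept 20 to 120 venular cells per rat, after which 797 genes were higher and 702 lower.

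The response of venular cells was then set against that of the other blood endothelial cells of the same rats. In a joint fit with a term for the difference, 69 of 10754 genes passed (0.642%), 34 with a difference above 0 and 35 below, and 1009 had an unadjusted p under 0.05. Leaving out vehicle rat 2 left 5 genes and leaving out vehicle rat 4 gave 268, so the number rests on single rats. Of 14 genes named here that passed, *PDGFA*, *TRIB3*, *HERPUD1* and *CD200* did so in every alternative run, and the other 10 did not pass without vehicle rat 2. The 10 with the smallest p are described next, and the other 4 were *CCN1* (-0.99), *FTH1* (-0.50), *SESN2* (1.08) and *TNFAIP2* (-2.36).

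The fall of *PDGFA* was larger in venular cells, where the log2 fold change was -3.45, than in the others, where it was -1.16 (difference -2.21, adjusted p = 0.00114). *TRIB3*, a pseudokinase of the stress response, stood at 101.7, 99.3 and 58.1 CPM in venular cells of vehicle rats and from 135 over 149 to 219 CPM in TGFBRi rats. It rose in venular cells (0.85) and fell in the others (-1.50), a difference of 2.27 (adjusted p = 0.0014). *HERPUD1*, a factor of protein degradation at the endoplasmic reticulum, stood at 257, 212 and 197 CPM against 444, 468 and 568 CPM in venular cells. Its log2 fold change was 1.11 there and -0.05 in the others, a difference of 1.15 (adjusted p = 0.0014). *CHAC1*, which degrades glutathione and is induced by stress, differed by 1.75, with changes of 1.06 and -0.85.

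*CD200*, a surface ligand that restrains myeloid cells, stood at 430.3, 678 and 559.6 CPM in venular cells of vehicle rats and from 171 over 193 to 365 CPM in TGFBRi rats. It fell there by 1.26 and stood at 0.13 in the others, a difference of -1.45 (adjusted p = 0.00842). *TMEM204*, a membrane protein of endothelial junctions, differed by -2.27, from changes of -1.62 and 0.63. *PLK2*, a kinase of the cell cycle, did not pass in venular cells (0.16) and fell in the others (-0.94), and *TFPI2* stood at 0.97 against -0.17. *MMP19*, a metalloproteinase, differed by 3.90 at 12.4 UMIs per rat. *REG3B*, an antimicrobial lectin, had the largest difference of these, 10.3, but a mean of 1.67 UMIs per rat in venular cells and none in vehicle rats, so its size is not interpretable.

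**Figure D5:**
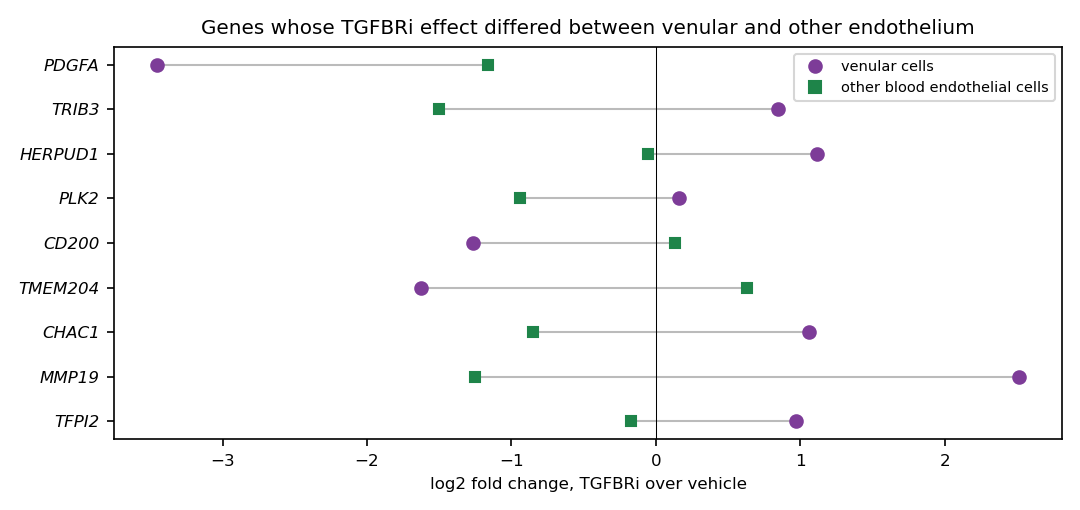
Log2 fold change, TGFBRi over vehicle (x axis), in venular cells (circles) and in other blood endothelial cells of the same rats (squares) for 9 of the 10 genes with the smallest p in the test of the difference; *REG3B*, with 1.67 UMIs per rat, is not drawn. *PDGFA*, *CD200* and *TMEM204* lie further left in venular cells, and the other 6 lie further right.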

How the data were processed

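The authors prepared 5′ droplet libraries of whole mammary glands from 3 vehicle and 6 TGFBRi SD rats, aligned them to rn6, and deposited tables of raw counts (UMIs per gene and cell, symbols here in capitals); per the labels and the study's methods, Cell Ranger 7.0.0 and Seurat 4.1.1 were used. The lowest number of genes per cell was 101. No mitochondrial gene was analysed here, so a filter on them was not checked, and no doublet caller was run. Cells were chosen by the stated rule, with 18237 genes in the tables; rule genes were kept out of list counts.

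Counts were summed per rat over venular, other or all blood endothelial cells. Genes with at least 10 UMIs over the rats were tested with edgeR 4.0.16 (R 4.3.3; TMM, quasi-likelihood test, Benjamini-Hochberg adjustment over all tested genes, threshold 0.1), without a replicate block. The difference between venular and other cells came from a joint fit with a block for each rat. DESeq2 1.42.0 gave standard errors and an alternative. Shares were compared by exact permutation of rats over 84 arrangements (scipy 1.17.1). Each rat is 1 animal; cells are not replicates. Scripts were tested on simulated data, with changes of 1 on the log2 scale planted in genes with a mean of at least 20 UMIs per rat. The comparison in venular cells found 81% of them, and the test of the difference 38.5%. Depth was 352885 to 1475698 venular UMIs per rat, so genes with few UMIs carry wide errors.

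Named genes were up to 12 per direction with the largest change among called genes with a mean of at least 20 UMIs per rat and groups that did not overlap, 2 to 4 examples of each list or those whose role is explained, the rule genes, the 15 genes with the highest venular ratio, and the 10 with the smallest p for the difference. Members and lists were chosen with earlier results of these data known, and the antioxidant, stress response, proteasome and heat shock lists after the values were seen. Alternatives changed the scaling, the filter on low counts, the tool, the gates, the depth and the rats. Values of 1 listed gene are not reported here. The tables hold none of the authors' fold changes.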

Additional observations from a re-analysis of the deposited data

Results flagged for a closer look

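Among the 6 TGFBRi rats, 1 rat stood apart from the others in 10 of 111 gene and group combinations tested, where chance alone gives about 1 in 20. The gap of that rat to its nearest neighbour, as a fraction of the range of the 6 rats, was 0.722 for *SULT1A1*, 0.660 for *SH3GLB2*, 0.630 for *OLR1*, 0.698 for *TRIB3*, 0.729 for *VCAM1*, 0.698 for *VWF*, 0.765 for *TIMP1*, 0.691 for *LAMA5*, 0.673 for *TALDO1* and 0.628 for *ESAM*, above Dixon's 95% critical value. For *OLR1* the rat was TGFBRi 11, at 324 CPM.

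The response to TGFBRi differed between venular and other blood endothelial cells, by the joint edgeR fit, for 14 of the genes named. The difference in log2 fold change, venular minus other, was -2.21 for *PDGFA*, 2.27 for *TRIB3*, 1.15 for *HERPUD1*, 1.15 for *PLK2*, -1.45 for *CD200*, -2.27 for *TMEM204*, 1.75 for *CHAC1*, 3.90 for *MMP19*, 1.20 for *TFPI2*, -0.99 for *CCN1*, -0.50 for *FTH1*, 1.08 for *SESN2*, -2.36 for *TNFAIP2* and 10.3 for *REG3B*, whose size depends on the prior count of the fit. Without vehicle rat 2, 10 of these 14 no longer passed, with adjusted p from 0.103 to 0.421, and *PDGFA*, *TRIB3*, *HERPUD1* and *CD200* did. *CCN1*, *FTH1*, *SESN2* and *TNFAIP2* also did not pass without TGFBRi rat 4 or 6, *SESN2* and *TNFAIP2* without vehicle rat 1, and *SESN2* without TGFBRi rat 14.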

How the results depend on the processing

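Of 91 named genes that passed in venular cells, 78 kept their call in every alternative that tested them, up to 22 per gene. Over 1992 refitted values 1943 kept direction and side of the threshold, 49 lost the call and none changed direction. A gene that fell below the filter on low counts in a refit was not counted as lost there. So *CCL3*, left with too few UMIs without vehicle rat 1, was not tested in that refit. The lost calls were of *NOS3* (15), *FKBP5* (9), *INHBA* (5), *CDKN1A*, *ESAM* and *JAG2* (3 each), *MADCAM1*, *TNFSF10*, *BST2* and *CSF1* (2 each), and *GPIHBP1*, *TNFAIP2* and *HSPD1* (1 each). Calls were also gained by genes named as not passing. Over the edgeR and DESeq2 alternatives the lowest adjusted p was 0.00534 for *IL6*, 0.00926 for *ANGPT2* and 0.0134 for *NFE2L2*. It was 0.0307 for *CCL2*, 0.0470 for *ICAM1* and 0.0859 for *NR2F2*. The count of 2867 called genes (1330 higher, 1537 lower) became 1499 (797, 702) without cells carrying a UMI of the chosen markers of other cell types. It became 1046 (522, 524) after thinning to 1500 UMIs. Fewer UMIs enter in both. Scaling by library size gave 2028 higher and 918 lower, and a filter at a mean of 20 UMIs per rat, which tests fewer genes, 961 lower. DESeq2 called 2186 genes. Leaving out 1 rat gave 1987 to 2803 called, 1010 to 1380 higher and 977 to 1500 lower, with 977 without vehicle rat 2. In all blood endothelial cells leaving out 1 rat gave 2542 to 5485 genes, in other blood endothelial cells 1443 to 4940, and for the difference of effect 5 to 268, with 5 without vehicle rat 2, 268 without vehicle rat 4, and 28 and 32 without TGFBRi rats 4 and 6; testing genes with any UMI gave 328. The causes were not tested. The proteasome count fell from 27 to 17 after thinning.

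Rats numbered 1, 2 and 4 occur in both groups. The correlations of their deviations from the group means were -0.06, -0.02 and 0.00. Whether rats of the same number share more than the number was not tested. With the number as a replicate block, which uses those 6 rats, 1481 genes passed (740 higher, 741 lower), and without the block the same 6 rats gave 1730 (868, 862); the latter alternative, the *CDH5* and high endothelial venule gates, the *SELP* gate for the shares and the fit without TGFBRi rats 1 and 2 were chosen after seeing the data.

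The endothelial share differed by 3.77 points after thinning (exact p = 0.238) and by 5.02 to 9.86 points without 1 rat. The exact p without 1 rat ran from 0.0357 to 0.143 and was below 0.05 only without TGFBRi rat 2. Without a vehicle rat too few arrangements remain for a p below 0.05, and the 0.0714 without vehicle rat 2 is the lowest possible. Without a TGFBRi rat only the most extreme arrangement falls below 0.05. These p-values therefore cannot show whether the difference depends on single rats. The share of all cells differed by -0.287 to -0.0185 points without 1 rat, and by 0.223 with *CDH5* as the gate, the opposite direction (exact p = 0.5). Genes that had not passed changed sign: *VCAM1* stood at 0.022 scaled by library size, 0.041 after thinning and -0.40 to 0.36 without 1 rat, *VWF* at -0.013 in the 6 numbered rats and -0.052 to 0.27 without 1 rat, and *IL6* at -0.82 to 0.015 without 1 rat. Gates on *ACKR1* alone were not run. Genes with few UMIs limit the depth: an absent call there does not show an equal level.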
